A study of Homo sapiens with 12 samples.

Results

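The ERBB receptors and the EGF-type ligands were followed across RNA-seq profiles of SNU308, a cell line from human gallbladder cancer. The 10 members were taken from a fixed list of symbols, 10 of 60617 genes in each file: the receptors EGFR, ERBB2 and ERBB3 and the ligands AREG, EREG, HBEGF, TGFA, BTC, EPGN and NRG1. All 10 passed the filter on low counts, among 17620 genes that did. The cells carried no engineered change and received 25 nM of a non-targeting control siRNA (NTC), of siCEACAM6#2 or of siCEACAM6#3, with 4 replicates each, and RNA was taken on day 3. CEACAM6 is a surface adhesion glycoprotein. All groups come from this single line, and both comparisons with NTC share the 4 control samples. The labels do not say whether replicates were separate cultures, so p-values measure only the spread between these samples.

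ERBB proteins are receptor tyrosine kinases that pair up at the cell surface. EGF-type ligands are made as membrane-anchored precursors, are cut free by ADAM proteases, and bind EGFR (AREG, EREG, HBEGF, TGFA, BTC and EPGN) or ERBB3 and ERBB4 (NRG1). ERBB2 has no known ligand and ERBB3 has a nearly inactive kinase, so both signal mostly in pairs with other family members. The paired receptors switch on the RAS-ERK and PI3K-AKT pathways. Changes in ERBB2, ERBB3 and EGFR are well known in biliary tract cancers.

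Libraries were of nearly equal depth, with total estimated counts of 21799476 to 22059456. The epithelial identity of the line was checked with 8 markers, which were all at 1 TPM or more (TPM is transcript abundance corrected for length and depth) and summed to 8541 to 9889 TPM per sample. Lists of leukocyte, fibroblast, endothelial and hepatocyte markers had at most 1 gene each at 1 TPM or more, with sums of 0 to 4.65 TPM. The targeted gene was lower in every siCEACAM6 sample than in every NTC sample. CEACAM6 was at 577 ± 41 CPM (counts scaled to library size, not corrected for length; SD, n = 4) in NTC, 328 ± 30 under siCEACAM6#2 and 418 ± 22 under siCEACAM6#3. Its log2 fold change was -0.82 (SE 0.07, limma-voom adjusted p = 2.71e-05) and -0.46 (SE 0.07, adjusted p = 0.0151), with an exact two-sided permutation p of 0.0286 each, the smallest that 4 against 4 samples can give. The siCEACAM6#3 call did not pass when NTC replicate 2, 3 or 4 was left out (-0.47, -0.44 and -0.43), nor without siCEACAM6#3 replicate 3 (-0.47). Mitochondrial transcripts took 11.8% to 12.9% of NTC counts, against 12.2% to 13.3% in siCEACAM6#2 samples and 12.5% to 15.3% in siCEACAM6#3 samples, and their part in the results was not tested. Without siCEACAM6#3 replicate 1, the genes called in siCEACAM6#3 versus NTC went from 12 to 258.

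Control SNU308 cells expressed all 3 receptors and a mixture of ligands. On the length-corrected scale, NRG1 stood highest in NTC at 69.5 ± 1.8 TPM (SD, n = 4), and no NTC sample of another member reached it. AREG (47.4 ± 6.3 TPM), EGFR (41.1 ± 1.9 TPM) and ERBB2 (40.4 ± 1.3 TPM) followed, and neighbours in this order overlapped between samples. TGFA (32.0 ± 2.2 TPM), HBEGF (29.9 ± 1.8 TPM) and ERBB3 (27.6 ± 1.7 TPM) formed the next group, again with overlapping neighbours and below every ERBB2 value. BTC (6.68 ± 0.65 TPM) and EPGN (5.50 ± 1.33 TPM) overlapped each other. EREG was lowest at 0.503 ± 0.144 TPM. Outside the members, the receptor ERBB4 was at 0.351 ± 0.280 TPM and the ligand EGF at 3.98 ± 0.83 TPM.

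Of the 10 members, AREG was called higher and HBEGF lower with siCEACAM6#2 versus NTC at an adjusted p under 0.05, 2 members where 1.25% of all 17620 tested genes were called. None was called with siCEACAM6#3 versus NTC by limma-voom or edgeR (1, AREG, by DESeq2), where 0.0681% of genes were called, and AREG alone was called for both siRNAs together (0.227% of genes). Between the siRNAs, HBEGF was higher and EPGN lower with siCEACAM6#3 than with siCEACAM6#2 (1.47% of genes called). At an unadjusted p under 0.05, 4 members passed in each contrast, where 13.6%, 12.5%, 12.9% and 13.3% of all tested genes did, in the same order. The median log2 fold change of the members was 0.11 with siCEACAM6#2 and 0.08 with siCEACAM6#3, beside 0.00 and -0.00 over all tested genes. In CPM, the samples of the 2 groups did not overlap for 5 members in siCEACAM6#2 versus NTC (10.8% of all tested genes). They did not for 1 in siCEACAM6#3 versus NTC (6.27%) and for 2 between the siRNAs (6.68%). In TPM, some of these did overlap: EGFR and EPGN with siCEACAM6#2, AREG with siCEACAM6#3, and EPGN between the siRNAs. The members were chosen with earlier results of these data known, so these counts and shares are a description and not a test of the family. In bulk RNA, a change in the number of expressing cells and in RNA per cell cannot be told apart.

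**Figure D1:**
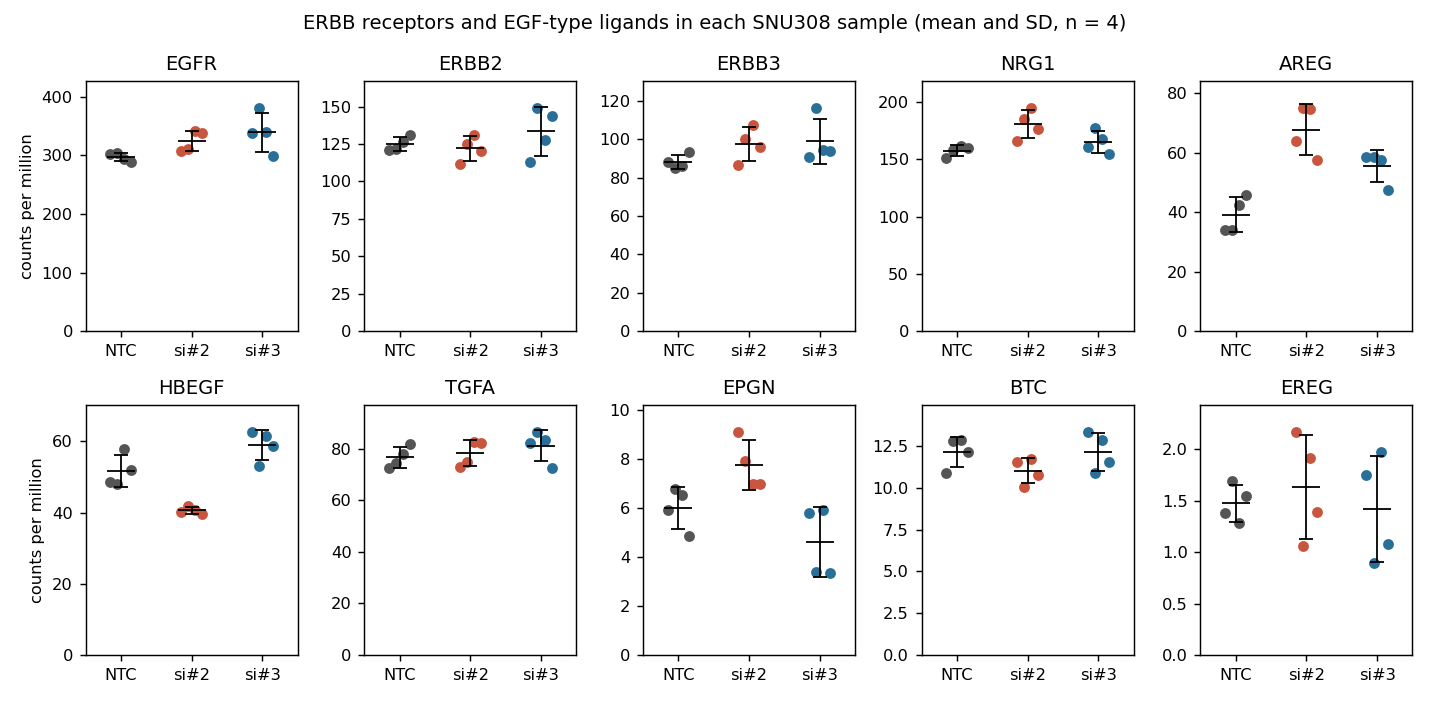
CPM (vertical axes, linear, from 0) of each member in the 12 samples, with NTC in grey, siCEACAM6#2 in red and siCEACAM6#3 in blue. Points are samples, and bars are the mean and SD of 4 replicates. AREG lies above NTC in all 8 siCEACAM6 samples, while HBEGF is lower in all 4 siCEACAM6#2 samples than in any sample of the other groups.

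The amphiregulin gene AREG (ENSG00000109321; GRCh38 chromosome 4, 74445136 to 74455005, plus strand) encodes a low-affinity EGFR ligand made by many epithelia and released mainly by ADAM17. The 4 NTC samples had 34.2, 34.1, 42.5 and 45.8 CPM. With siCEACAM6#2 they had 63.9, 75.2, 74.9 and 57.5 CPM, and with siCEACAM6#3 58.8, 58.8, 57.6 and 47.7 CPM. In CPM, every siCEACAM6 sample was above every NTC sample, and the lowest, siCEACAM6#3 replicate 4, was close to the highest control. In TPM, siCEACAM6#3 replicate 4 (53.3 TPM) lay below NTC replicate 4 (55.0 TPM), so siCEACAM6#3 overlapped NTC on that scale. AREG rose 1.74-fold with siCEACAM6#2, a log2 fold change of 0.80 (SE 0.11, adjusted p = 0.00367). This call held in all 12 fits that left out a sample (0.74 to 0.88) and in all 9 other settings. With siCEACAM6#3 the log2 fold change was 0.52 (SE 0.11, 95% interval 0.29 to 0.75), which did not pass the adjustment over all genes (adjusted p = 0.109). Among the fits that left out a sample it passed without siCEACAM6#3 replicate 1 (0.50, adjusted p = 0.0449) or replicate 4 (0.59, adjusted p = 0.041). Over both siRNAs the change was 0.66 (SE 0.10, adjusted p = 0.00947), and this call was lost without NTC replicate 1 (0.60, adjusted p = 0.0668) or replicate 2 (0.60, adjusted p = 0.0592) and on the log2 TPM scales (0.60 and 0.61, adjusted p = 0.0792 and 0.0773). The 2 siRNAs overlapped and were not shown to differ in AREG (-0.28, 95% interval -0.50 to -0.06, adjusted p = 0.233).

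The stretch around the AREG start, from 250 bases before it to 50 after, is shown because AREG is the member with the largest called rise. It is RefSeq sequence (GRCh38.p14) of chr4:74444886-74445185, plus strand, and is 66.3% G and C, beside a median of 58.7% over 35116 such windows. Capitals mark matches, on either strand, to any of 5 motifs that were searched in all members: the cAMP response element TGACGTCA (CRE, in 1.85% of the windows), the TATA box TATAAA (11.5%), the GC box GGGCGG (in 44.95%), the AP-1 site TGANTCA (7.71%) and the NF-kB site (0.558%). In AREG they are a CRE at -65 to -58, a TATA box at -29 to -24 and a GC box, read on the other strand, at -9 to -4, counted from +1 at the start, with no base 0.
AREG: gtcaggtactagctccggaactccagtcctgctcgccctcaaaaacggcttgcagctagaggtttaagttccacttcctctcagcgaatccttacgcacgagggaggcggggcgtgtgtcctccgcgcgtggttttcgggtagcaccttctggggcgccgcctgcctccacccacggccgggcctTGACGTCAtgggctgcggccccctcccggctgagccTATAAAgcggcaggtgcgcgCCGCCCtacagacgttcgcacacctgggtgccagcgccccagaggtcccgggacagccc
AREG was the only member with the CRE letters among the 8 that had an entry, which did not include ERBB3 and NRG1. A letter match is not evidence of binding.

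HBEGF (ENSG00000113070; GRCh38 chromosome 5, 140332843 to 140346603, minus strand) encodes heparin-binding EGF-like growth factor, a ligand of EGFR and ERBB4. The NTC samples had 48.7, 48.0, 57.9 and 52.0 CPM. With siCEACAM6#2 they had 40.2, 41.9, 40.9 and 39.6 CPM, and with siCEACAM6#3 62.8, 53.0, 61.5 and 58.7 CPM. The 4 siCEACAM6#2 samples lay below all other samples within a spread of 0.990 CPM (SD), and the siCEACAM6#3 samples overlapped NTC. HBEGF fell by 0.34 on the log2 scale with siCEACAM6#2 (SE 0.07, adjusted p = 0.0253), to 0.790 of the NTC level. Leaving out NTC replicate 1, 3 or 4 ended this call (-0.36, -0.28 and -0.34), as did leaving out siCEACAM6#2 replicate 2, 3 or 4 (-0.35, -0.34 and -0.33), with adjusted p-values of 0.0562 to 0.0936. It was also not passed on the log2 TPM scales (-0.35 and -0.37, adjusted p = 0.0818 and 0.0831). With siCEACAM6#3 the log2 fold change was 0.19 (95% interval 0.05 to 0.34, adjusted p = 0.254). In the direct contrast HBEGF was 1.45-fold higher with siCEACAM6#3 than with siCEACAM6#2 (log2 0.53, SE 0.07, adjusted p = 0.00189). It held in all 12 fits without 1 sample (0.51 to 0.58) and in all 9 other settings (0.49 to 0.57).

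The siRNA targets are shown beside the HBEGF transcript because an siRNA can also act on other transcripts through its seed, guide bases 2 to 8. Guides are the complement of the listed targets, read in reverse. In the lines below, capitals mark the 7 bases that pair with the seed in a target or transcript, and the seed itself in a guide. The targets are in the 3′ UTR of CEACAM6, at chr19:41771369-41771389 for siCEACAM6#2 and chr19:41771611-41771631 for siCEACAM6#3 (GRCh38, plus strand). The HBEGF stretch is the end of its 3′ UTR, chr5:140332859-140332880 on the minus strand, with the match at base 1430 of 1456.
siCEACAM6#2 target: cagccatgcaatgCCAAATAa
siCEACAM6#2 guide: uUAUUUGGcauugcauggcug
siCEACAM6#3 target: ctcctaatagtcaTACTAGTa
siCEACAM6#3 guide: uACUAGUAugacuauuaggag
HBEGF 3′ UTR: tactttgcaatCCAAATAaaga
Aligned on the match without gaps, the HBEGF transcript equals the siCEACAM6#2 target at 12 of 21 bases, the 7 matched bases included. By the same count, the siCEACAM6#3 seed matches in EREG and BTC equal the siCEACAM6#3 target at 12 and 11 of 21 bases. The annotated 3′ UTR of HBEGF held no match to the siCEACAM6#3 seed. Among 13748 tested genes with an annotated 3′ UTR, 2140 (15.6%) held the siCEACAM6#2 match. Their median log2 fold change with that siRNA was -0.027, beside 0.004 for the 11608 without it. Of the 2140, 55 were called lower and 11 higher, and of the 11608, 53 and 89. The match was thus held by 50.9% of the 108 such genes called lower, against 11 of 100 called higher. The intended target CEACAM6, whose site holds the match, is itself among the 55. HBEGF was also among the 55, and whether the match had a part in its fall was not tested.

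The siCEACAM6#2 match was also present in the 3′ UTR of NRG1, whose level with siCEACAM6#2 was not lower than in NTC. The siCEACAM6#3 match, held by 6.63% of genes, was found in EREG and BTC, and neither was called with siCEACAM6#3. No match to either seed was found in AREG, EPGN, TGFA or the 3 receptors.

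The HBEGF promoter window differed in make-up from that of AREG and is shown for that contrast. It is RefSeq sequence of chr5:140346554-140346853 (GRCh38.p14), given on the minus strand in the direction of transcription, and is 75.0% G and C. Capitals mark 5 GC boxes, at -176 to -171 and -163 to -158 on the other strand and at -73 to -68, -63 to -58 and -58 to -53, the last pair sharing 1 base. No CRE, TATA box, AP-1 or NF-kB letters were found in this window.
HBEGF: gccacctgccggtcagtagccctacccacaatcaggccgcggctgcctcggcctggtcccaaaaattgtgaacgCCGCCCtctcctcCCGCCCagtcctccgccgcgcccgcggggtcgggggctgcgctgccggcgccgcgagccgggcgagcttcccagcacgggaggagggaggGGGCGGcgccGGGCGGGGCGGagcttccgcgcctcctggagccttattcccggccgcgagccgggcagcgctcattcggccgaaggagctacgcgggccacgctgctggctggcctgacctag

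EPGN (ENSG00000182585; chromosome 4, 74308470 to 74316789, plus strand) encodes epigen, a low-affinity EGFR ligand. It was a low transcript, with 5.89, 6.77, 6.51 and 4.84 CPM in NTC, 9.11, 7.89, 6.98 and 6.99 CPM under siCEACAM6#2 and 5.79, 3.39, 5.91 and 3.32 CPM under siCEACAM6#3. In CPM, all siCEACAM6#2 samples were above NTC and all siCEACAM6#3 samples below siCEACAM6#2, while siCEACAM6#3 overlapped NTC. EPGN was lower with siCEACAM6#3 than with siCEACAM6#2 by a log2 difference of -0.79 (SE 0.18, adjusted p = 0.0358). Neither siRNA passed against NTC, at 0.37 (adjusted p = 0.344) and -0.42 (adjusted p = 0.376). Leaving out NTC replicate 1 or 3 ended the direct call (-0.79 and -0.79). So did leaving out any siCEACAM6#2 sample (-0.70, -0.77, -0.83 and -0.83 without replicate 1 to 4) and siCEACAM6#3 replicate 2 or 4 (-0.66 and -0.65). It was not called on the log2(TPM + 1) scale either (-0.45, adjusted p = 0.444). In TPM, EPGN was at 5.50 ± 1.33 in NTC, 5.38 ± 0.43 under siCEACAM6#2 and 3.83 ± 1.42 under siCEACAM6#3, so that siCEACAM6#2 stood above NTC in CPM (log2 ratio of means 0.37) and level with it in TPM (-0.03). The ratio of counts to TPM, which follows the length of the transcripts that reads were assigned to, varied more between samples for EPGN (SD 0.27 on the log2 scale) than for 90.1% of 17476 genes. For AREG and HBEGF this SD was 0.0045 and 0.0037, and their log2 ratios of means were alike in CPM and TPM, at 0.79 and 0.76 for AREG and -0.34 and -0.37 for HBEGF with siCEACAM6#2.

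AREG, EREG, EPGN and BTC are neighbours on chromosome 4 in the order EPGN, EREG, AREG and BTC, within 486 kb. The gaps between them were 48.4 kb, 56.4 kb and 289.8 kb. Of the 4, AREG was called against NTC, EPGN only between the siRNAs, and BTC and EREG in no contrast. BTC, betacellulin, which binds EGFR and ERBB4, ranged from 10.1 to 13.4 CPM over the 12 samples, with log2 fold changes of -0.14 (95% interval -0.33 to 0.05) and -0.00 (-0.19 to 0.19). EREG, epiregulin, another low-affinity EGFR ligand, was at 0.895 to 2.17 CPM, and its intervals of -0.45 to 0.65 and -0.68 to 0.46 left changes of that size undetectable at this depth.

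TGFA encodes transforming growth factor alpha, a high-affinity EGFR ligand, and it stayed between 72.6 and 86.7 CPM in all samples. Its log2 fold change was 0.03 (95% interval -0.11 to 0.16) with siCEACAM6#2 and 0.08 (-0.06 to 0.22) with siCEACAM6#3.

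**Figure D2:**
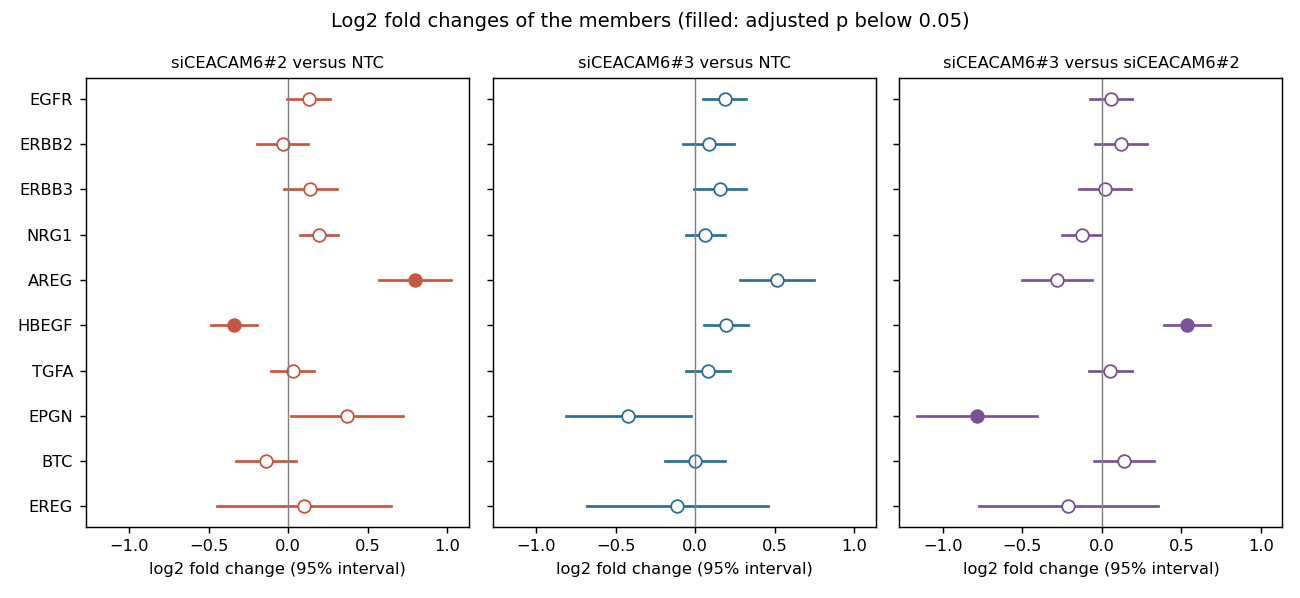
Log2 fold changes of the 10 members (horizontal axis, CPM scale) with 95% intervals, for each siRNA versus NTC and for the siRNAs against each other. Filled points passed an adjusted p of 0.05: AREG (0.80) and HBEGF (-0.34) with siCEACAM6#2, none with siCEACAM6#3, and HBEGF (0.53) and EPGN (-0.79) between the siRNAs.

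The share of each ligand among the transcripts of the 6 EGFR ligands on the member list is a description of these values. EGF, which is not a member, was left out of the sum. AREG made up 38.7% ± 3.0 of the summed TPM of the 6 EGFR ligands in NTC, 54.0% ± 3.2 under siCEACAM6#2 and 46.1% ± 2.1 under siCEACAM6#3 (SD, n = 4). HBEGF made up 24.5% ± 0.8, 15.6% ± 1.0 and 23.5% ± 2.0, and TGFA 26.3% ± 0.8, 22.3% ± 2.2 and 22.9% ± 0.7. Shares of a sum are tied, so a rise of AREG lowers the shares of the rest. TGFA itself was at 32.0, 33.1 and 32.2 TPM in the 3 groups. There were 1.58 ± 0.17 AREG transcripts per HBEGF transcript in NTC, 3.47 ± 0.37 under siCEACAM6#2 and 1.97 ± 0.26 under siCEACAM6#3. The lowest ratio with siCEACAM6#2 was 3.02 and the highest in any other sample 2.31. The summed level was 122 ± 9 TPM in NTC, 148.5 ± 9.5 under siCEACAM6#2 and 141 ± 15 under siCEACAM6#3. The siCEACAM6#2 sums did not overlap NTC, while siCEACAM6#3 replicate 4, at 121.5 TPM, lay within the NTC range.

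**Figure D3:**
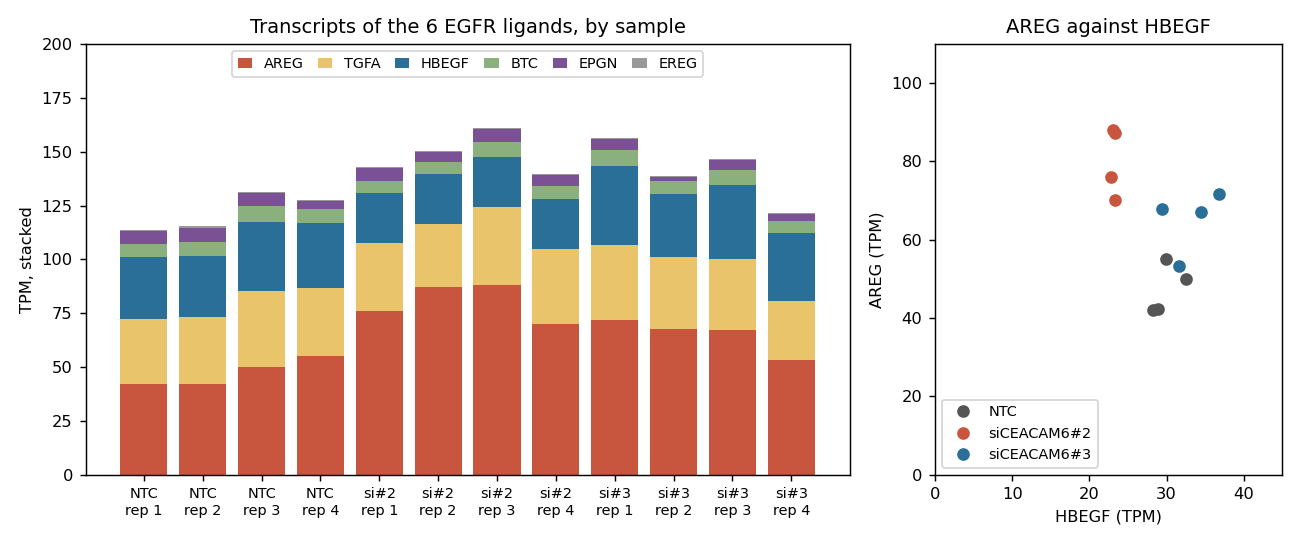
TPM of the 6 EGFR ligands among the members, EGF not included, stacked for each of the 12 samples (left, axis from 0). The right panel shows AREG against HBEGF in TPM for the same samples (both axes from 0, NTC grey, siCEACAM6#2 red, siCEACAM6#3 blue). The siCEACAM6#2 samples have HBEGF near 23 TPM and AREG at 70.2 to 88.0 TPM, apart from the other samples.

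NRG1 encodes neuregulin 1, which acts through ERBB3 and ERBB4 rather than EGFR. The NTC samples had 151, 158, 161 and 160.2 CPM. With siCEACAM6#2 they had 166, 186, 195 and 176 CPM, and with siCEACAM6#3 160.3, 177, 168 and 155 CPM. All siCEACAM6#2 samples were above NTC, and siCEACAM6#3 overlapped both groups. The log2 fold change of 0.19 with siCEACAM6#2 (95% interval 0.07 to 0.32) did not pass by limma-voom (adjusted p = 0.119). It passed without siCEACAM6#2 replicate 1 (0.24, adjusted p = 0.0448), by DESeq2 (0.20, adjusted p = 0.03) and with sample weights (0.21, adjusted p = 0.0132). With siCEACAM6#3 it was 0.07 (-0.06 to 0.19, adjusted p = 0.671). The mean TPM with siCEACAM6#3 was below that of NTC (66.3 ± 4.7 against 69.5 ± 1.8), so its direction depended on the scale.

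No receptor was called in any contrast by limma-voom, edgeR or DESeq2. EGFR, the receptor of the 6 ligands above, had 301, 303, 293 and 289 CPM in NTC. It had 308, 311, 341 and 338 CPM with siCEACAM6#2 and 337, 381, 339 and 298 CPM with siCEACAM6#3. In CPM, all siCEACAM6#2 samples were above NTC and all but replicate 4 of siCEACAM6#3. In TPM, siCEACAM6#2 (40.6 to 45.7) overlapped NTC (38.7 to 42.6). The log2 fold changes were 0.13 (95% interval -0.01 to 0.26, adjusted p = 0.393) and 0.19 (0.05 to 0.32, adjusted p = 0.251), and neither passed. With sample weights EGFR passed with siCEACAM6#3 (0.20, adjusted p = 0.0455) and for both siRNAs (0.17, adjusted p = 0.0209). ERBB3 ranged from 85.2 to 93.5 CPM in NTC, 86.7 to 107 under siCEACAM6#2 and 90.9 to 116 under siCEACAM6#3, with log2 fold changes of 0.14 (-0.02 to 0.30) and 0.16 (-0.01 to 0.32). ERBB2 ranged from 121 to 131, 112 to 131 and 113 to 149 CPM, with log2 fold changes of -0.04 (-0.20 to 0.13) and 0.09 (-0.08 to 0.25). These intervals put the upper bound for a rise of any receptor at 0.32 on the log2 scale.

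ERBB2 is amplified in a subset of biliary cancers, and the genes beside it can be amplified with it. The 2 highest of 3 listed neighbours by TPM were STARD3, a cholesterol carrier of endosomes, and MIEN1. They were at 55.8 ± 2.6 and 54.6 ± 3.4 TPM in NTC, beside 40.4 ± 1.3 TPM for ERBB2. Without length correction the order differed: mean log2 CPM in NTC was 5.48 for STARD3, 4.73 for MIEN1 and 4.40 for PGAP3, the third, beside 6.97 for ERBB2. None of the 3 listed neighbours was called in any contrast by limma-voom (log2 fold changes versus NTC of -0.06 to 0.07). Copy number was not measured.

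The wider pathway was followed with 81 listed genes, of which 77 were tested. With siCEACAM6#2, 1 was called by limma-voom, higher (ERRFI1), where 1.25% of all tested genes were, and 13 passed an unadjusted p of 0.05, where 13.6% of all genes did. With siCEACAM6#3, limma-voom, edgeR and DESeq2 called 0, and 14 passed the unadjusted p (12.5% of all genes). For both siRNAs together, limma-voom and edgeR called 0 and DESeq2 1 (CBLB, named after its values were seen), and 11 passed the unadjusted p (12.9% of all genes). Between the siRNAs 2 were called (1.47% of all genes), both lower with siCEACAM6#3 (ERRFI1 and CCND1), and 14 passed the unadjusted p (13.3% of all genes). The median log2 fold change of the 77 was -0.01 with siCEACAM6#2 and 0.02 with siCEACAM6#3.

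ERRFI1, an inhibitor that binds the kinase of active EGFR, was at 49.3 ± 2.1 CPM in NTC, 64.5 ± 4.9 under siCEACAM6#2 and 49.0 ± 7.2 under siCEACAM6#3. It rose by a log2 fold change of 0.39 with siCEACAM6#2 (SE 0.09, adjusted p = 0.0354), with every sample above NTC. Leaving out any NTC sample ended this call (0.37, 0.41, 0.38 and 0.41 without replicate 1 to 4), and so did leaving out siCEACAM6#2 replicate 2, 3 or 4 (0.38, 0.34 and 0.42). The direct difference of -0.41 (adjusted p = 0.0247) ended on leaving out siCEACAM6#2 replicate 2 or 3 (-0.39 and -0.36) or replicate 3 of siCEACAM6#3 (-0.39). With siCEACAM6#3 its log2 fold change against NTC was -0.02 (95% interval -0.20 to 0.17).

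CCND1, the cyclin that ERK signaling induces in G1, was at 498 ± 7 CPM in NTC, 554 ± 14 under siCEACAM6#2 and 476 ± 13 under siCEACAM6#3. It differed between the siRNAs by -0.22 (SE 0.04, adjusted p = 0.014), a call lost without siCEACAM6#2 replicate 2 or 3 (-0.21 and -0.21). With siCEACAM6#2 versus NTC it did not pass by limma-voom (0.15, adjusted p = 0.078), and it passed by DESeq2 (0.16, adjusted p = 0.00175), with sample weights (0.16, adjusted p = 0.00703), with no filter on low counts (0.16, adjusted p = 0.0113) and without siCEACAM6#3 replicate 4 (0.15, adjusted p = 0.0432). None of the calls on ERRFI1 and CCND1 passed on the log2 TPM scales.

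The most abundant genes of each list were not called by limma-voom in either comparison with NTC, while DESeq2 and the fit with sample weights called SHC1 and CCND1 with siCEACAM6#2. Among the proteases that release the ligands, ADAM15 was at 174 ± 4 TPM and ADAM10 at 67.8 ± 3.2 TPM in NTC. None of the 7 tested sheddases and regulators passed against NTC by limma-voom. Their log2 fold changes were -0.10 to 0.07 under siCEACAM6#2 and -0.24 to 0.16 under siCEACAM6#3. The -0.24 was ADAM17 (limma-voom adjusted p = 0.233), named after its values were seen. ADAM17 was at 0.03 with siCEACAM6#2 and at -0.27 between the siRNAs (limma-voom adjusted p = 0.107). Of 28 transducers, the kinase MAP2K2 (221 ± 8 TPM) and the adaptor SHC1 (124 ± 10 TPM) led. Of 18 attenuators and trafficking genes, the endocytosis and endosomal sorting proteins EPN1 (109 ± 5 TPM) and HGS (76.3 ± 7.6 TPM) led, and limma-voom called ERRFI1 alone. Of 17 tested ERK-responsive genes, none was called against NTC by limma-voom, including PHLDA1 (142 ± 13 TPM) with log2 fold changes of 0.27 and 0.33 (adjusted p = 0.359 and 0.299). Of the other receptor and ligands, NRG4 led at 23.4 ± 3.1 TPM, with log2 fold changes of 0.01 and -0.01.

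**Figure D4:**
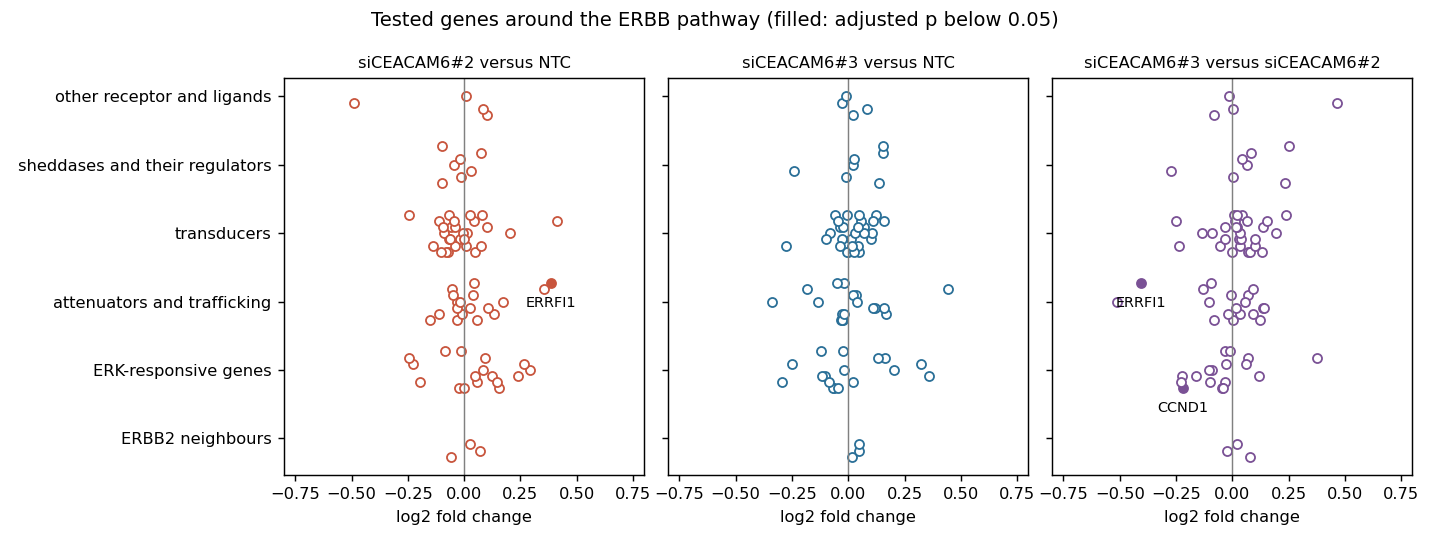
Log2 fold changes (horizontal axis, CPM scale) of the 77 tested pathway genes by list, for each siRNA versus NTC and for the siRNAs against each other. Each point is a gene, spread vertically only for legibility, and filled points passed an adjusted p of 0.05: ERRFI1 with siCEACAM6#2, none with siCEACAM6#3, and ERRFI1 and CCND1 between the siRNAs.

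The genes most like the top receptor and the top ligand over the 12 samples were named by the Pearson r of log2 CPM, among genes of mean CPM at least 1. For EGFR they were PTPRK (r = 0.947), KIAA1671, AHNAK, AMOTL1 and PHLDB2 (r = 0.921). For NRG1 they were UBE2H (r = 0.972), LAMC1, LMBR1L, ETS1 and GADD45A (r = 0.941). These are descriptions, each the highest of many, and all points share the same libraries, scaling and groups.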

How the data were processed

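RNA-seq of 12 SNU308 samples (3 groups of 4) was analysed from the authors' gene tables. Per the labels, Trim Galore 0.6.4, kallisto 0.4.6 and GRCh38.p13 were used, and the study's methods name kallisto 0.46.1. The GENCODE release is not given in the sources used here. Labels and methods also differ on the transfection reagent and on read layout. The tables deposited by the authors hold unscaled estimated counts and TPM for each gene. Kallisto divides reads shared by transcripts, so isoform assignment can move counts and TPM apart.

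Estimated counts were rounded and fitted with limma-voom (R 4.3.3, limma 3.58.1, edgeR 4.0.16): filterByExpr by group, TMM factors, 1 model with a mean per group, and Benjamini-Hochberg adjustment over all 17620 tested genes, called under 0.05. Alternatives were RLE factors, 2 other filters, edgeR quasi-likelihood, DESeq2 1.42.0, limma-trend on log2(TPM + 1) and log2(TPM + 0.1), sample weights, a replicate block, and each sample left out. Total counts were 21799476 to 22059456 per sample, so depth limits precision mainly for low genes such as EREG. Abundant genes could also be imprecise: with siCEACAM6#2 versus NTC the standard error was 0.12 for PHLDA1, beside 0.07 for HBEGF. Members and lists were chosen with earlier results of these data known, and 1 pathway gene is not reported here. All members, pathway genes called in any contrast, the 2 highest genes by TPM of each list, ERBB4, EGF and the 5 genes most like EGFR and NRG1 were named. Symbols, positions and 3′ UTRs came from GENCODE 44 (GRCh38), promoter windows from RefSeq, and siRNA targets from the study's materials.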

Additional observations from a re-analysis of the deposited data

Results flagged for a closer look

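Among 39 sets of 4 samples checked, 2 had a sample whose gap to its nearest neighbour exceeded Dixon's 95% value, where chance flags about 1 in 20. They were ERBB3 in siCEACAM6#3 replicate 2, at 116.4 CPM above the rest of its group, and AREG in siCEACAM6#3 replicate 4, at 47.7 CPM below the rest. The other flags are differences between the effects of the siRNAs, tested directly as siCEACAM6#3 versus siCEACAM6#2 by limma-voom. HBEGF differed by 0.53 (adjusted p = 0.00189) and EPGN by -0.79 (adjusted p = 0.0358) on the log2 scale. The targeted CEACAM6 itself differed by 0.35 (adjusted p = 0.016), with more transcript left with siCEACAM6#3. ERRFI1 differed by -0.41 (adjusted p = 0.0247) and CCND1 by -0.22 (adjusted p = 0.014).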

How the results depend on the processing

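Of 828 values of the 10 members under an alternative, 794 kept their side of the threshold, 24 lost a call, 10 gained one and no called value changed sign. Among the 794 were 51 uncalled values that changed sign, the largest being EPGN with siCEACAM6#2 (0.37). With limma-trend on log2(TPM + 1) and on log2(TPM + 0.1), 1 member (AREG) was called with siCEACAM6#2, 0 for both siRNAs and 1 (HBEGF) between the siRNAs, and 0 pathway genes with siCEACAM6#2 and between the siRNAs. CEACAM6 with siCEACAM6#3 was -0.51 in log2(TPM + 1), not called. With no filter on low counts, 1 member (HBEGF) was called between the siRNAs and 2 pathway genes with siCEACAM6#2. DESeq2 called 3 members with siCEACAM6#2 (NRG1 added), 1 (AREG) with siCEACAM6#3, and 1 pathway gene for both siRNAs, 4 with siCEACAM6#2 and 6 between the siRNAs. With sample weights, 3 members were called with siCEACAM6#2 (NRG1 added), 2 with siCEACAM6#3 and 2 for both siRNAs (AREG and EGFR) and 1 between the siRNAs (HBEGF), and 6, 2, 4 and 6 pathway genes with siCEACAM6#2, siCEACAM6#3, both and between. With 1 sample left out, the members called were 1 to 3 with siCEACAM6#2, 0 to 1 with siCEACAM6#3, 0 to 1 for both and 1 to 2 between the siRNAs. The pathway genes called were 0 to 2, 0 to 2, 0 to 1 and 0 to 5, and CEACAM6 with siCEACAM6#3 was -0.50 to -0.43. The cause of these changes was not tested.

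Over all genes, 221, 12, 40 and 259 calls (siCEACAM6#2, siCEACAM6#3, both, between) became 534, 221, 337 and 556 by DESeq2, 1120, 382, 899 and 560 with sample weights, and 7, 0, 2 and 47 or 6, 4, 2 and 50 on the 2 TPM scales. Without the filter, siCEACAM6#3 had 24. With 1 sample left out they were 49 to 364, 2 to 258, 3 to 204 and 83 to 651. With the replicate block they were 284, 87, 118 and 349, and 1 member, AREG, was then also called with siCEACAM6#3 (0.52, adjusted p = 0.0449). The replicate numbers were not taken to pair the samples: 2 of 12 same-number correlations were over 0.1 (-0.054 to 0.185), and 0 of 12 samples correlated best with their own number in both other groups. Among the members, the standard errors versus NTC were 0.26 and 0.27 for EREG and 0.17 and 0.19 for EPGN, the members with the lowest counts.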
